A study of Mus musculus and Rattus norvegicus with 6 samples.

Results

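The miR-181 family was followed in small RNA sequencing of rodent retina, as every mature name of miR-181 with any letter, hairpin copy or arm (prefixed mmu- in the mouse table and rno- in the rat table). There were 10 such names among the 542 that the mouse and the rat table share, 10 of 1915 names in the mouse table and 10 of 764 in the rat table, and all 10 were listed in both. The retinas came from wild type C57BL/6 mice and wild type Sprague Dawley rats, 9 weeks of age in both, with 3 libraries per species (m1, m3 and m4 for mouse, r1, r2 and r4 for rat). No treatment was applied to either species, and the labels do not say whether each library is a separate animal, so each p-value speaks only of how these libraries vary, in part perhaps for technical reasons. Species, strain and table of counts change together and cannot be told apart. The protocol text in the labels speaks of rat eyes for mouse samples as well.

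A microRNA (miRNA) is cut from a hairpin precursor that has a 5p and a 3p arm. The arm that stays in the Argonaute protein is the guide, and it pairs with messenger RNAs mainly through its seed, bases 2 to 8, and lowers their output; the other arm, the passenger, is mostly degraded. In the miR-181 family the 5p arms are the guides. The family is known for tuning signalling strength in developing T cells, and in the retina miR-181a and miR-181b are known from the inner layers, in amacrine and ganglion cells, where they act on axon growth and on genes of mitochondrial turnover.

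The guide arms are shown first, because all of them share 1 seed and so 1 set of predicted seed matches (mouse mature sequences from RefSeq on GRCm38.p6, 5′ to 3′, seed in capitals; rat sequences were not used here).
mmu-miR-181a-5p: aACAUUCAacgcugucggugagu
mmu-miR-181b-5p: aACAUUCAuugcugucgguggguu
mmu-miR-181c-5p: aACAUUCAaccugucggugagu
mmu-miR-181d-5p: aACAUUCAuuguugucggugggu
All 10 names were matched to the RefSeq table, and no mature miRNA of that table outside the family had the same seed as any of them. Counted from the 5′ end of the first member of each pair, miR-181a-5p and miR-181b-5p differ by A9U, C10U and A21G and by 1 base of length. The change from miR-181b-5p to miR-181d-5p is C12U alone, with 1 base of length. miR-181c-5p lacks the base at position 11 of miR-181a-5p and has no substitution. A read aligned with mismatches or a gap, or lacking these inner bases, can therefore be hard to place between b and d or between a and c. How such reads were counted is not given in the sources used here.

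The passenger arms are shown because they tell the hairpin copies apart where the 5p sequence cannot.
mmu-miR-181a-1-3p: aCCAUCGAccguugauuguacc
mmu-miR-181a-2-3p: aCCACCGAccguugacuguacc
mmu-miR-181c-3p: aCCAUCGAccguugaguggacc
mmu-miR-181b-1-3p: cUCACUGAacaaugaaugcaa
mmu-miR-181b-2-3p: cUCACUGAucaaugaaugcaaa
mmu-miR-181d-3p: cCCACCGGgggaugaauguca
From miR-181a-1-3p to miR-181a-2-3p the changes are U5C, which lies in the seed, and U16C. miR-181a-1-3p and miR-181c-3p share a seed and differ by U16G and U19G. miR-181b-1-3p and miR-181b-2-3p share another seed and differ by A9U and 1 base of length. The 10 mature sequences are 21 to 24 bases long. How evenly different sequences were captured was not tested, so an order of levels between names, or between arms, is an order of counts.

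The 6 hairpins lie in 3 pairs in the mouse genome (GRCm38.p6). Mir181a-1 (chr1:137966455-137966541, plus strand) and Mir181b-1 (chr1:137966639-137966718, plus strand) are 97 bases apart in an intron of the non-coding gene Gm4258, on the same strand. Mir181b-1 also lies within an exon of the lincRNA A430106G13Rik, and Mir181a-1 partly so. Mir181a-2 (chr2:38852735-38852810, plus strand) and Mir181b-2 (chr2:38853830-38853918, plus strand) are 1019 bases apart, opposite in strand to an intron of Nr6a1, a gene for a nuclear receptor. Mir181c (chr8:84178873-84178961) and Mir181d (chr8:84178716-84178787), both on the minus strand, are 85 bases apart in an intron of Nanos3. The hairpins of the a copies are given because their 5p arms are identical and their 3p arms are not; capitals mark both mature arms.
Mir181a-1: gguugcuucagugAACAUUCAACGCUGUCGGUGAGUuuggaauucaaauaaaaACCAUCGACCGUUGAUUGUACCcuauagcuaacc
Mir181a-2: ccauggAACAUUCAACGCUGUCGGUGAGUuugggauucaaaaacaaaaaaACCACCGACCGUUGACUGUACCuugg

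The libraries held 24169628 to 30514632 counts. Across all names of a table on a log2(CPM + 1) scale, with CPM for counts per 1e6 counts of the library, each pair of mouse libraries and the pair r2 and r4 had Pearson r = 0.999, while r1 had r = 0.986 with r2 and 0.988 with r4. Library r1 stood apart, so values without it, or the value of each library, stand beside the results below. Of the lists of marker miRNAs, the photoreceptor list (miR-183-5p, miR-182-5p, miR-96-5p) summed to 434212 to 463511 CPM in mouse and 360641 to 488361 CPM in rat, highest in r1, and all 3 were detected in both species. The neuronal list (8 of 8 found per species once miR-9a and miR-218a were read as the rat names) summed to 99254 to 102384 CPM in mouse and 95001 to 124401 CPM in rat, lowest in r1. The lymphocyte, leukocyte and microglia list, cells that also hold miR-181, summed to 129 to 156 CPM in mouse and 104 to 162 CPM in rat, with none of the 5 names found at 0, far under the level of miR-181a-5p. Lens and cornea names (miR-184, miR-205) summed to 311 to 1249 CPM in mouse, to 9374 CPM in r1 and to 1773 and 1136 CPM in r2 and r4. The endothelial and mural list lay at 4184 to 5005 CPM in mouse and 7510 to 7947 CPM in rat, the retinal pigment epithelium list at 13778 to 16134 and 24512 to 30822 CPM, and the muscle list at 642 to 883 and 44.3 to 66.9 CPM. The red blood list lay at 104 to 110 CPM in mouse with 3 of its names found and at 161 to 292 CPM in rat with 2. The part of these cells in the results was not tested, and in bulk tissue fewer cells of a type and less RNA per cell cannot be told apart.

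The family was a sizeable part of both retinas, nearly all of it from the guide arms. The 4 names of the guide seed held 2.86%, 3.05% and 3.26% of all counts in m1, m3 and m4, and 1.28%, 3.02% and 2.73% in r1, r2 and r4. Counting error is small against these gaps: the 95% Wilson interval of the r1 share is 1.27% to 1.28%. The means were 3.06% ± 0.196 in mouse and 2.34% ± 0.936 in rat (± SD over 3 libraries), and the species overlapped, since r2 lay above m1. An exact two-sided permutation test gave p = 0.20, where 3 against 3 libraries cannot go below 0.10. Library r1 was the low one; without it the rat libraries were 0.179 percentage points below the mouse mean.

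miR-181a-5p led the family and ranked 9th of all names in mouse and 13th in rat by mean share. It held 20672, 21871 and 23328 CPM of all counts in m1, m3 and m4 and 9413, 21998 and 20174 CPM in r1, r2 and r4. Next came miR-181b-5p with 7369, 7960 and 8581 CPM in the mouse libraries and 2997, 7553 and 6514 CPM in the rat libraries. Both species overlapped for miR-181a-5p and miR-181b-5p on this scale, with r1 at 0.446 and 0.426 times the mean of r2 and r4. miR-181d-5p had 552, 592 and 605 CPM in mouse and 334, 652 and 566 CPM in rat. miR-181c-5p, made 85 bases away from it, was the lowest guide, with 46.4, 47.5 and 48.9 CPM in mouse and 16.3, 41.6 and 34.5 CPM in rat. Of the 4 guides, miR-181c-5p alone did not overlap between species in share of all counts. The percentage of all names without overlap on this scale was not computed, so this has no background to be read against.

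**Figure D1:**
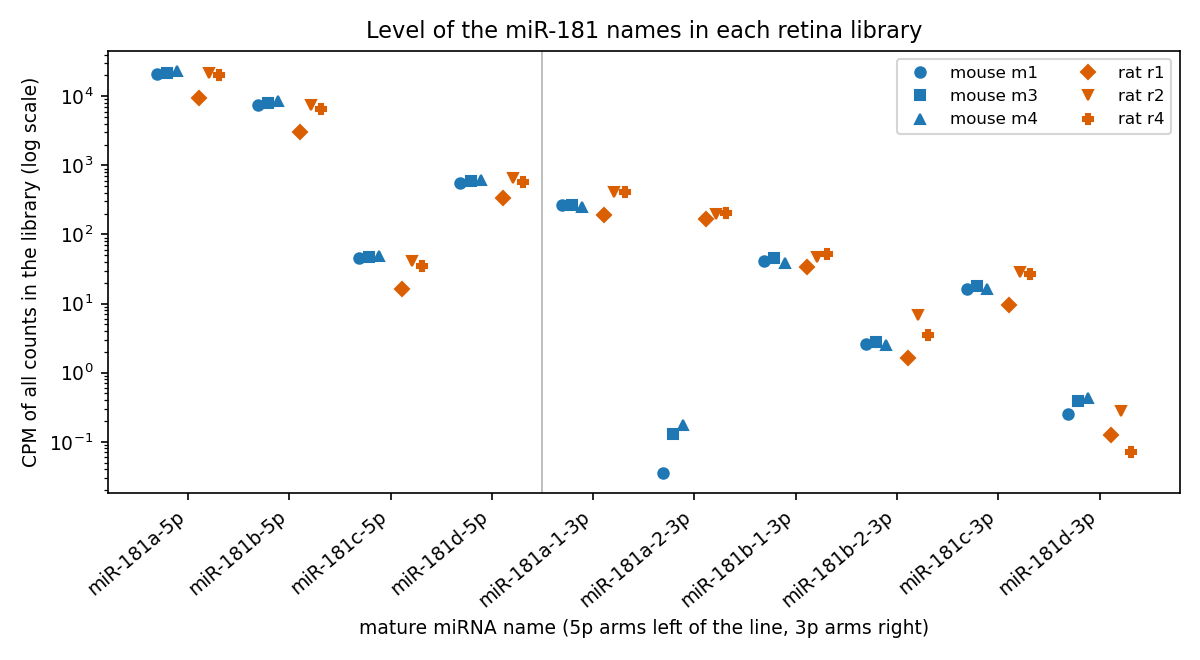
CPM of all counts in the library (log scale) for each miR-181 name, with 1 point per library, mouse in blue and rat in orange. The guides keep the order a, b, d, c in all 6 libraries, r1 is the lowest rat point for every guide, and miR-181a-2-3p is under 0.2 CPM in the mouse libraries and between 167 and 202 CPM in the rat libraries.

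Among the passenger arms the order began with miR-181a-1-3p in both species. It had 269, 269 and 249 CPM in m1, m3 and m4 and 193, 409 and 406 CPM in r1, r2 and r4. miR-181b-1-3p, from the same locus, had 40.8, 45.0 and 38.6 CPM in mouse and 34.3, 47.0 and 52.9 CPM in rat. These ranges overlap between the species. In each mouse library miR-181b-1-3p was below the guide miR-181c-5p, and in each rat library it was above it (1136 against 1292 counts in m1, and 828 against 393 in r1). miR-181c-3p had 16.4, 17.8 and 16.04 CPM in mouse and 9.56, 28.7 and 27.2 CPM in rat. miR-181b-2-3p had 2.62, 2.75 and 2.55 CPM in mouse and 1.61, 6.84 and 3.55 CPM in rat. Its r1 level was 0.311 times the mean of r2 and r4, the lowest such ratio of the 10 names. miR-181d-3p was near the floor, with 7, 12 and 12 counts in mouse and 3, 7 and 2 in rat.

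miR-181a-2-3p was the name with the sharpest contrast. It had 1, 4 and 5 counts in m1, m3 and m4, and 4048, 5062 and 5685 counts in r1, r2 and r4. In mouse the 10 counts stand beside 22680 counts of miR-181a-1-3p, the matching arm of the other a hairpin. Summed over libraries, the level per count of the library was 1649 times higher in rat, with a 95% exact interval of 896 to 3439 that covers counting error only. PCR copies are not independent molecules, so the counting intervals given here are too narrow as intervals for molecules. r1 was at 0.834 times the mean of r2 and r4 here, nearer to them than for any other miR-181 name. The rat sequence behind the name was not used here, so whether 1 sequence stands under it in both tables was not tested.

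Differences between species were then tested on scaled CPM, the counts of shared names divided by library totals corrected with TMM (trimmed mean of M values), which assumes that most miRNAs do not differ. The test was edgeR's quasi-likelihood F test over all shared names, with Benjamini-Hochberg adjustment over the 398 that passed the filter on low counts and a call at an adjusted p under 0.05. Of these 398, 25.6% were called higher and 24.4% lower in rat, and the median log2 difference (rat minus mouse) was 0.08. All 4 guides were called lower in rat, with a median of -0.70, where the median of the 189 tested 5p names was -0.03. Of the 6 passengers 5 were tested, 1 was called higher and 0 lower (0 lower also at an unadjusted p under 0.05 and with DESeq2), with a median of 0.09; the 204 tested 3p names had a median of 0.15. Of the tested family members, miR-181a-2-3p passed the filter only through its rat libraries and had to differ.

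For miR-181a-5p the scaled CPM were 33330, 34427 and 33378 in m1, m3 and m4 and 18335, 24563 and 22607 in r1, r2 and r4, so the species did not overlap on this scale. The log2 difference was -0.63 ± 0.18 (SE; edgeR adjusted p = 0.0162) and -0.52 ± 0.07 without r1. miR-181b-5p averaged 12230 ± 327 scaled CPM over the mouse libraries and 7190 ± 1301 over the rat libraries (SD, n = 3). Its log2 difference was -0.77 ± 0.18 (edgeR adjusted p = 0.00709) and -0.64 ± 0.08 without r1. The guide that fell furthest was miR-181c-5p, at 74.8, 74.8 and 69.9 scaled CPM in mouse and 31.7, 46.5 and 38.6 in rat, a log2 difference of -0.91 ± 0.18 (edgeR adjusted p = 0.00288) and -0.78 ± 0.10 without r1. miR-181d-5p had 890, 932 and 866 scaled CPM in mouse and 651, 728 and 634 in rat, the smallest difference of the 4, at -0.42 ± 0.14 (edgeR adjusted p = 0.0329) and -0.40 ± 0.07 without r1. The libraries of the species did not overlap for 4 of 4 guides, against 59.8% of all tested names.

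These calls rest on the scaling. With totals of the shared names in place of TMM, the median of all tested names moved up by 0.36 and 0 of the 4 guides were called by edgeR (0 at an unadjusted p under 0.05; DESeq2 with its own size factors called 4), and the split of all calls was 74.7% higher against 51.3% with TMM. Here 31.9% of all tested names were called higher and 10.8% lower. Totals of all names moved the median by 0.25, with 26.6% higher and 11.1% lower and again 0 of the 4 guides called. With totals of the shared names the guides were still below 0, at -0.25 (a), -0.38 (b), -0.53 (c) and -0.07 (d), and relative to the moved median they lay at -0.68, -0.82, -0.96 and -0.50. With TMM the same distances from the median were -0.70, -0.84, -0.99 and -0.49. With 1 library left out and TMM, the differences ran from -0.52 to -0.71 for miR-181a-5p and from -0.37 to -0.47 for miR-181d-5p. Without m1, m3 or m4 the difference of miR-181a-5p was -0.62, -0.61 and -0.61, and it was no longer called (edgeR adjusted p of 0.0679, 0.0652 and 0.0501). Without m1, m3, m4 or r4 that of miR-181d-5p was -0.41, -0.39, -0.42 and -0.37, and it was no longer called (edgeR adjusted p of 0.107, 0.112, 0.0562 and 0.115).

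**Figure D2:**
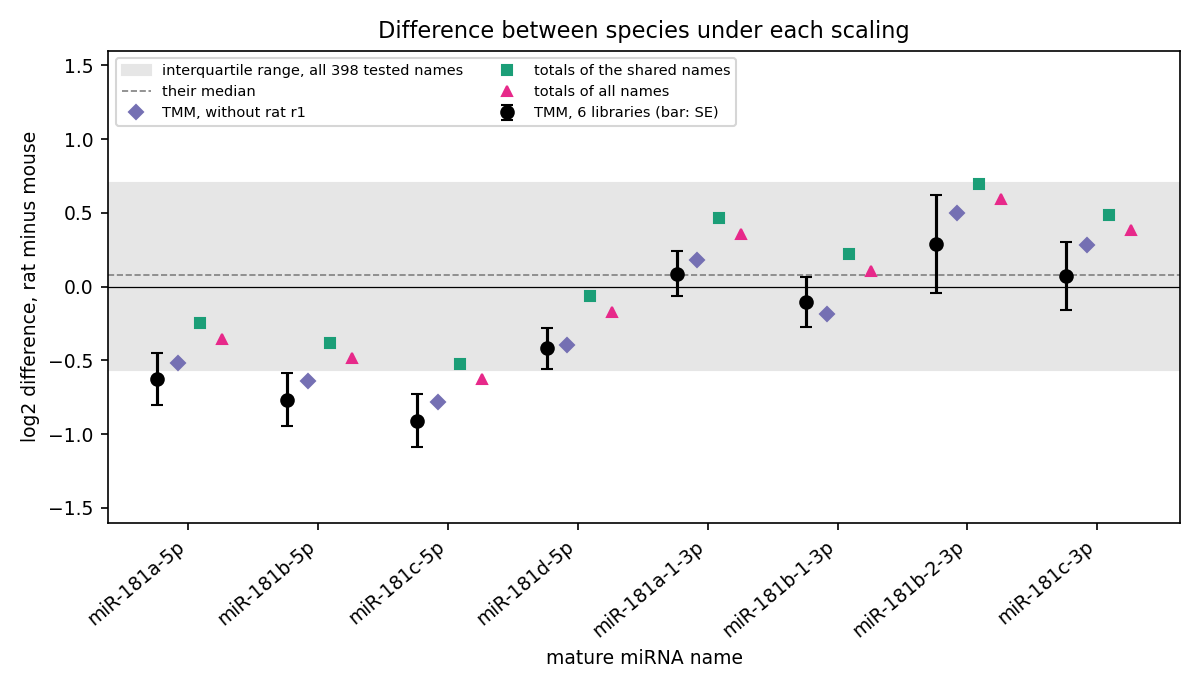
Log2 difference, rat minus mouse, of 8 tested miR-181 names with TMM over 6 libraries (black, bar = SE), with TMM without r1, and with totals of the shared or of all names; the grey band is the interquartile range of all 398 tested names and the dashed line their median. The 4 guides lie below 0 under each of these settings, nearer to 0 with totals, and miR-181b-1-3p changes sign between TMM (-0.10) and totals of the shared names (0.22). miR-181a-2-3p, at 10.46, is not drawn.

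Of the passengers tested with TMM over all libraries, those other than miR-181a-2-3p did not share the lower call of the guides. miR-181a-1-3p averaged 404 ± 42.1 scaled CPM over the mouse libraries and 429 ± 45.5 over the rat libraries (SD, n = 3), which differ by 0.09 ± 0.15 (edgeR adjusted p = 0.667). For miR-181b-1-3p the difference was -0.10 ± 0.17, for miR-181b-2-3p 0.29 ± 0.33 and for miR-181c-3p 0.07 ± 0.23, with edgeR adjusted p of 0.644, 0.498 and 0.813. Without r1 all 4 guides were called lower, where 34.4% of all names were. In the same fit miR-181b-1-3p (-0.19 ± 0.10, edgeR adjusted p = 0.115) and miR-181b-2-3p (0.50 ± 0.24, edgeR adjusted p = 0.0886) were not called, while miR-181a-1-3p (0.18 ± 0.07, edgeR adjusted p = 0.0431) and miR-181c-3p (0.28 ± 0.10, edgeR adjusted p = 0.0241) were called higher, where 36.6% of all names were. miR-181a-2-3p rose from 0.0579, 0.206 and 0.254 scaled CPM in m1, m3 and m4 to 326, 223 and 226 in r1, r2 and r4. Its fitted log2 difference of 10.46 ± 0.37 depends on the prior count added to the few mouse reads and is no bound. The name passed the filter only through its rat libraries and had to differ, so its edgeR adjusted p of 1.18e-07 is no support. Only the names miR-185-3p and miR-344b-5p, each at 0 in all libraries of 1 species, were further from 0 among the 398. miR-181d-3p did not pass the filter; with no filter its difference was -1.43 ± 0.53 (edgeR adjusted p = 0.0479), on 31 mouse and 12 rat counts. Without r1 it passed the filter and was called lower (-1.51 ± 0.61, edgeR adjusted p = 0.0482).

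A ratio of arms within a library needs no scaling between tables. The log2 ratio of 5p to 3p counts, with 0.5 added to each, was compared with limma over 201 arm pairs, in which 1 5p name can stand against each of its hairpin copies (20 pairs share a 5p name). Of these pairs 15.9% were called lower in rat (a shift to 3p) and 7.96% higher, and the median difference was -0.21. All 6 miR-181 pairs were tested: 3 were called lower, 0 higher and 3 not called. Their species did not overlap in 6 of 6 pairs, against 45.8% of all pairs, and 5 lay lower in rat and 1, miR-181d, higher. These differences draw on the same counts as the levels above and are not independent of them. The pairs miR-181a-1 and miR-181a-2 share the count of miR-181a-5p, and miR-181b-1 and miR-181b-2 that of miR-181b-5p. The 6 pairs are therefore not independent of each other either.

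For the pair miR-181a-1 the log2 ratio was 6.27, 6.35 and 6.55 in m1, m3 and m4 and 5.60, 5.75 and 5.64 in r1, r2 and r4. The difference was -0.73 ± 0.20 (SE; limma adjusted p = 0.0427) and -0.70 ± 0.14 without r1. As a share, miR-181a-1-3p was 1.20% ± 0.120 of miR-181a-5p in mouse and 1.98% ± 0.104 in rat (± SD over 3 libraries). The 5p count here comes from both a hairpins. Against the summed 3p arms of both a hairpins, miR-181a-5p was 76.9, 81.4 and 93.8 times as abundant in the mouse libraries and 26.1, 36.1 and 33.2 times in the rat libraries.

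miR-181c was the hairpin with the most even arms. Its log2 ratio was 1.498, 1.42 and 1.61 in m1, m3 and m4 and 0.77, 0.54 and 0.34 in r1, r2 and r4. The passenger stood at 35.2% ± 2.32 of the guide in mouse and 68.9% ± 10.1 in rat (± SD over 3 libraries). The difference was -0.96 ± 0.21 (limma adjusted p = 0.0206) and -1.07 ± 0.13 without r1. The neighbouring miR-181d was far less even, with a passenger at 0.0608% ± 0.0134 of the guide in mouse and 0.0307% ± 0.0160 in rat (± SD over 3 libraries). That was the lowest passenger percentage in rat. In mouse those of miR-181b-2-3p (0.0333%) and miR-181a-2-3p (0.000511%) were lower still, set against 5p counts that come from both copies. The ratio of miR-181d differed by 1.001 ± 0.47 (limma adjusted p = 0.183) and rests on 2 to 12 passenger counts per library. It was 0.40 with 5 added to each count, 0.50 without r4 and 1.23 without r1, and was called in none of these.

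The ratios of the b hairpins were below those of mouse in every rat library without being called. For miR-181b-1 the log2 ratio was 7.50, 7.47 and 7.79 in mouse and 6.45, 7.33 and 6.94 in rat, a difference of -0.68 ± 0.28 (limma adjusted p = 0.149), and of -0.45 ± 0.19 without r1 (limma adjusted p = 0.118). For miR-181b-2 it was 11.4, 11.5 and 11.7 in mouse and 10.8, 10.1 and 10.8 in rat, a difference of -0.95 ± 0.27 (limma adjusted p = 0.0510). That of miR-181b-2 was called without r1 (-1.08 ± 0.26, limma adjusted p = 0.0303), with 5 added to each count (-0.96, limma adjusted p = 0.0284) and with a minimum sum of 500 counts (-0.95, limma adjusted p = 0.0412). For miR-181a-2 the log2 ratio was 18.5, 17.2 and 16.9 in mouse and 5.81, 6.78 and 6.64 in rat. The difference of -11.12 ± 0.51 (limma adjusted p = 3.00e-05; -10.82 without r1 and -9.83 with 5 added to each count) was the furthest shift to 3p of the 201 pairs.

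Of these calls, miR-181a-2 alone was kept when any 1 of m1, m3, m4, r2 and r4 was left out. The calls of miR-181a-1 and miR-181c were both lost in each of these cases, which left 1 of the 6 pairs called, while their differences stayed at -0.64 to -0.79 and at -0.86 to -1.004. Without r1 4 pairs were called, all of them lower, where 30% of all pairs were lower and 13.5% higher.

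**Figure D3:**
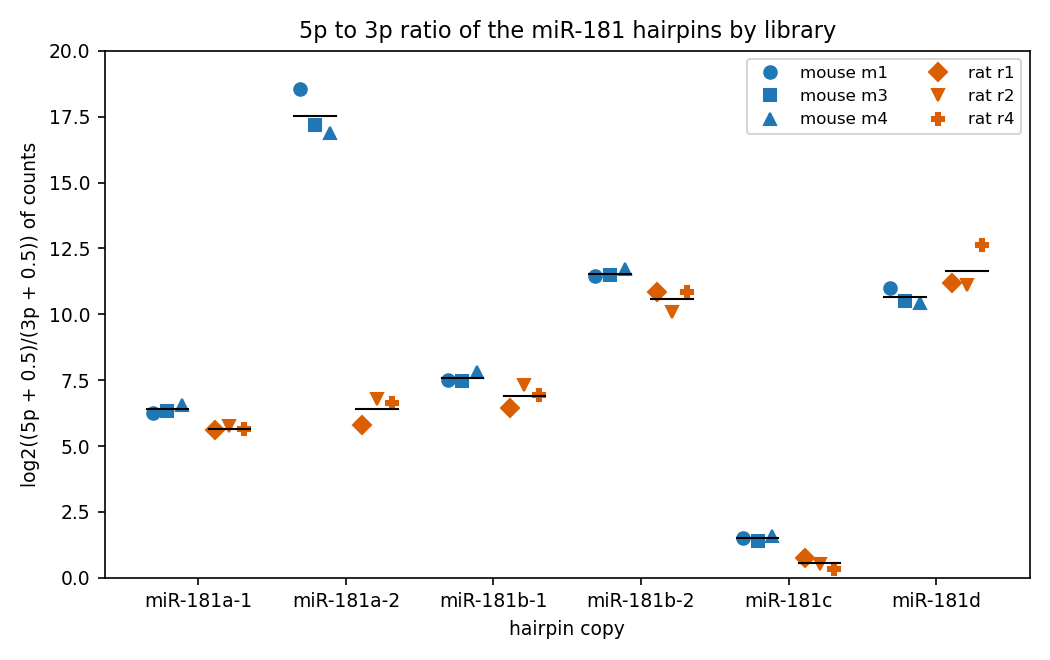
Log2 ratio of 5p to 3p counts (0.5 added to each) for the 6 miR-181 hairpin copies, with 1 point per library and a line at each species mean. The rat points lie below the mouse points for 5 copies and above them for miR-181d; miR-181a-2 drops from 16.9 or more in mouse to 6.78 or less in rat.

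The makeup of the family, also free of scaling, was tested with exact two-sided permutation tests, in which 3 against 3 libraries cannot go below p = 0.10. Of the 5p counts, miR-181a-5p took 72.2%, 71.8% and 71.6% in m1, m3 and m4 and 73.8%, 72.7% and 73.9% in r1, r2 and r4. miR-181b-5p took 26.1% ± 0.315 in mouse and 24.1% ± 0.771 in rat (± SD over 3 libraries). miR-181d-5p took 1.93%, 1.94% and 1.86% in m1, m3 and m4 and 2.62%, 2.16% and 2.07% in r1, r2 and r4, a difference of 0.373 percentage points, or 0.205 without r1. miR-181c-5p took 0.156% ± 0.00599 in mouse and 0.130% ± 0.00624 in rat (± SD over 3 libraries). Without r1 the differences for a, b and c were 1.47, -1.65 and -0.0240 percentage points, against 1.61, -1.96 and -0.0255 with it. The 4 shares are parts of 1 total and not independent, and the species did not overlap for any of them (exact p = 0.10 for each, and 0.10 after adjustment over the 4), a difference that the design cannot call. The ratio of miR-181d-5p to miR-181c-5p, whose hairpins are neighbours, was 11.9, 12.5 and 12.4 in mouse and 20.5, 15.7 and 16.4 in rat (exact p = 0.10).

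Among the 3p counts the largest contrast between species was that of 1 name. miR-181a-2-3p took 0.0360% ± 0.0237 in mouse and 33.1% ± 7.02 in rat (± SD over 3 libraries; exact p = 0.10, adjusted over 6 names 0.12), with 41.2% in r1, 28.9% in r2 and 29.2% in r4. The shares of the other names are parts of the same total, so they are pulled down in rat by construction where this name is high. This does not fix the direction of each: miR-181b-2-3p took 0.797%, 0.823% and 0.834% in m1, m3 and m4 and 0.397%, 0.989% and 0.513% in r1, r2 and r4. miR-181a-1-3p took 81.0% ± 0.739 in mouse and 55.1% ± 6.53 in rat, miR-181b-1-3p 12.8% ± 0.556 and 7.63% ± 0.814, and miR-181c-3p 5.18% ± 0.170 and 3.48% ± 0.981 (± SD over 3 libraries). With miR-181a-2-3p left out of the total, a setting chosen after seeing the data, these 3 shares overlapped between species. miR-181a-1-3p then took 81.7%, 80.3% and 81.2% in m1, m3 and m4 and 80.9%, 83.2% and 82.9% in r1, r2 and r4 (exact p = 0.30). miR-181b-1-3p took 12.4%, 13.5% and 12.6% in mouse and 14.3%, 9.57% and 10.8% in rat (exact p = 0.50), and miR-181c-3p 4.99%, 5.32% and 5.24% in mouse and 3.999%, 5.83% and 5.56% in rat (exact p = 1.0). miR-181d-3p, on its few counts, did not overlap with either total, and miR-181b-2-3p overlapped with both. Within the a hairpins, copy 2 gave 0.0134%, 0.0488% and 0.0713% of the 3p counts in m1, m3 and m4 and 46.4%, 32.9% and 33.2% in r1, r2 and r4.

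The b hairpins of the same 2 loci showed no such turn. The ratio of miR-181b-1-3p to miR-181b-2-3p was 15.6, 16.4 and 15.1 in m1, m3 and m4 and 21.2, 6.88 and 14.9 in r1, r2 and r4, and the species overlapped. The passenger of Mir181a-2 had 14795 rat against 10 mouse counts, and that of its neighbour Mir181b-2 had 312 against 229.

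**Figure D4:**
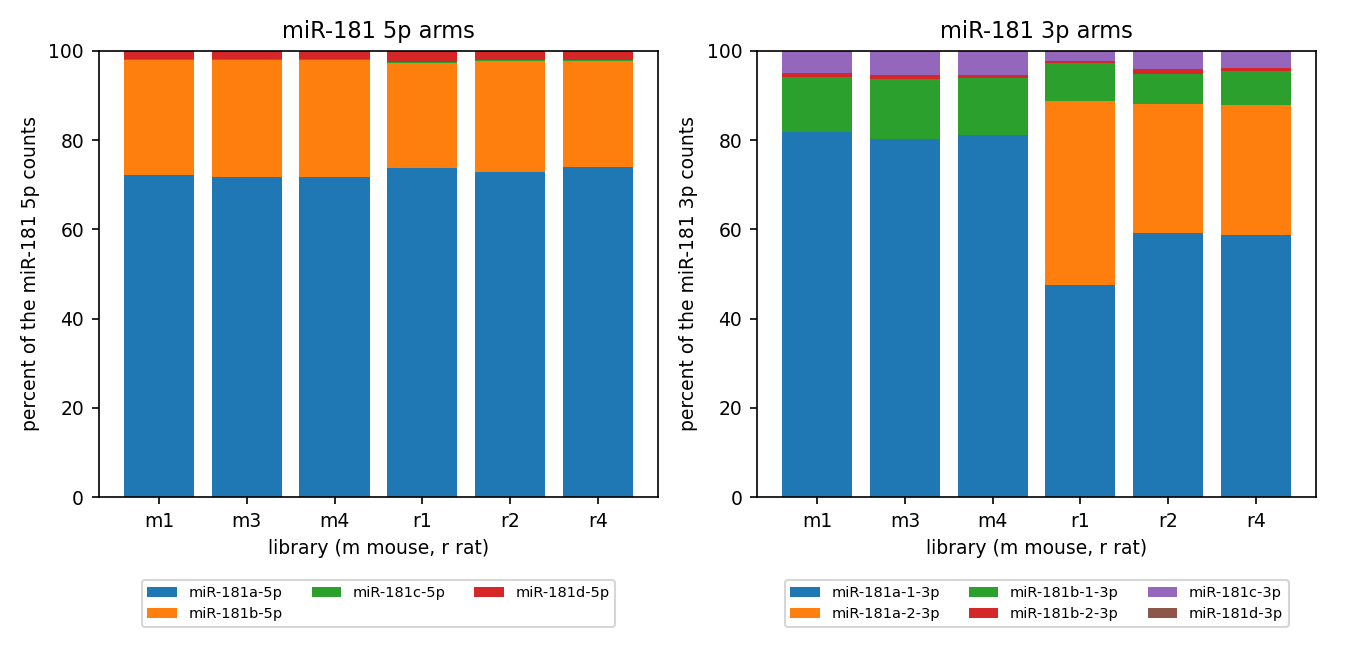
Share of each name in the miR-181 5p counts (left) and 3p counts (right), as stacked bars, with 1 bar per library. The 5p bars look alike, with miR-181a-5p between 71.6% and 73.9%, while miR-181a-2-3p takes 28.9% to 41.2% of the 3p counts in rat and cannot be seen in mouse.

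Seeds were read from the mouse sequences and set to the same names in rat, whose own sequences were not used here. By this reading, the guide seed ACAUUCA held 98.9% ± 0.106 of all family counts in mouse and 97.4% ± 0.440 in rat (± SD over 3 libraries). The seed CCAUCGA, of miR-181a-1-3p and miR-181c-3p, went from 0.906% ± 0.0919 to 1.501% ± 0.0757, and UCACUGA, of the b passengers, from 0.143% ± 0.0159 to 0.216% ± 0.0507. The seed CCACCGA, which in mouse miR-181a-2-3p alone carries, stood at 0.000363% ± 0.000215 in mouse and 0.880% ± 0.342 in rat. By library it was 1.27% in r1, 0.647% in r2 and 0.721% in r4. Whether the rat name stands for a sequence with this seed was not tested. All passengers together made up 1.14%, 1.09% and 0.932% of the family in m1, m3 and m4 and 3.09%, 2.24% and 2.47% in r1, r2 and r4. Without miR-181a-2-3p the passenger share was 1.05% ± 0.106 in mouse and 1.72% ± 0.116 in rat (± SD over 3 libraries; exact p = 0.10), so the libraries still did not overlap.

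The names whose scaled profile over the 6 libraries lay nearest to that of miR-181a-5p, by Euclidean distance of centred log2(CPM + 1) among 157 others of at least 100 CPM in a species, were miR-24-3p (distance 0.122), miR-124-3p (0.164), miR-433-3p (0.184), miR-181b-5p (0.198) and let-7b-5p (0.217). Being near, they had log2 differences between -0.57 (miR-24-3p) and -0.77 (miR-181b-5p). Such likeness over 6 libraries that share their scaling is a description. Of the marker lists, read by names spelled alike in both tables, 2 of 6 tested neuronal names were called lower in rat (median -0.22), as were 1 of 4 lymphocyte, leukocyte and microglia names (median -0.20) and 1 of 2 muscle names (median -0.28). Both retinal pigment epithelium names (median 0.71) and 1 of 2 endothelial and mural names (median 0.39) were called higher. The 2 photoreceptor names (median -0.28) and the 1 red blood name (-1.03) were not called, and no lens and cornea name was tested. That red blood name, miR-144-3p, was close to the floor, with a mean of 0.704 CPM of all counts in mouse and 0.419 in rat. The medians leave out names that are spelled differently in the tables, among them miR-9, miR-218 and miR-182, which had higher means in rat. In mean CPM of all counts, miR-9 had 57084 in mouse and 66314 in rat, miR-218 481 and 1554, and miR-182 194025 and 237210. Also left out was the muscle name miR-1, lower in rat, with 750 in mouse and 24.6 in rat. So were miR-486 (94.7 and 237), miR-145 (26.1 and 53.3) and miR-142 (1.13 and 2.71), each higher in rat. The libraries of the species overlapped for miR-9 and miR-182. Over all tested names 25.6% were called higher and 24.4% lower.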

How the data were processed

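Each species has 1 table of whole-number counts by mature miRNA, deposited without normalization. Small RNA libraries were sequenced single-end for 50 bases on an Illumina HiSeq-2500, per the labels' protocols. Trimming, aligner, annotation release and how reads matching more than 1 name were treated: not given in the sources used here. Columns were assigned to a species and not to a numbered sample.

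Tables were joined by name without the species prefix (542 shared names). The abundance test used edgeR 4.0.16 under R 4.3.3 (filterByExpr, TMM, quasi-likelihood F test, species as the only term, all 6 libraries; SE from the log2 difference and F). Arm ratios were tested with limma 3.58.1 (both arms in both tables, 265 pairs, with a sum over both arms of at least 50 counts in every library, 201 pairs). Family shares were tested by exact permutation over libraries. The chi-square per degree of freedom between libraries of 1 species was at least 102, so none was treated as a second sequencing of the same library. This value cannot tell separate animals from separate libraries of 1 animal. Depth was 24169628 to 30514632 counts, at which 10 counts are under 1 CPM. Both fits were tested on simulated data. DESeq2 1.42.0, other scalings, filters, pseudocounts, wider names (44 pairs added) and leaving out each library were alternatives. The makeup of the 3p arms without miR-181a-2-3p was added after seeing the data.

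The members, lists and tests were chosen with earlier results of these data known. Every miR-181 name was to be named, with the 5 profiles nearest to miR-181a-5p; marker names missing from a table were read under the name without arm or with the letter a.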

Additional observations from a re-analysis of the deposited data

How the results depend on the processing

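The guide calls depend on the scaling: 4 of the miR-181 names were called lower in rat with TMM, and 0 with totals of the shared names and 0 with totals of all names (edgeR; 0 at an unadjusted p under 0.05 in both). All counts of tested names called were within 1.5 times of 199 under these settings (170 and 150), but the share of calls that were higher moved from 51.3% to 74.7% and 70.7%. The log2 difference of miR-181b-1-3p changed sign, from -0.10 to 0.22 with totals of the shared names and 0.11 with totals of all names. When 1 library was left out, 2 (without m3 or m4) to 5 names of the family were called lower and 1 to 3 (without r1) higher. Of all tested names, 153 of 410 (without m3) to 293 of 413 (without r1) were called in these fits. With 1 library left out, the log2 difference of miR-181b-2-3p ran from -0.17 (without r2) to 0.50, and that of miR-181c-3p from -0.053 (without r2) through -0.01 (without r4) to 0.28. Of all arm pairs 48 of 201 were called, and 29 of 201 (without m3) to 90 of 207 (without r1) with 1 library left out. Of the miR-181 pairs 1 to 4 were called in these fits. With 5 added to each count 4 of them were called, against 53 of 201 over all pairs. With a minimum sum of 500 counts 4 were called, against 35 of 142 over all pairs. The causes were not tested. The fitted log2 difference of miR-181a-2-3p, which had to differ to pass the filter, ran from 10.10 to 10.84 over the 6 fits that leave out 1 library. No paired analysis was possible by replicate number because the columns do not carry the replicate numbers of the labels. A mouse and a rat library come from different animals, so a shared number alone would not make them a pair. Depth limits miR-181d-3p, with 12 counts at most in a library, and miR-181a-2-3p in mouse.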
